A study of Mus musculus with 16 samples.

Results

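The locus of Dppa3 and Nanog on mouse chromosome 6 holds a row of genes that naive embryonic stem cells are known to express: Dppa3, Gdf3 and Nanog, with Apobec1 and the glucose transporter gene Slc2a3 beside them. H3K27me3 was examined there as the consensus peaks that overlap the span of 1 of these 5 genes with 2 kb on either side. Only 2 of the 102957 consensus peaks of the study met that rule, and both belonged to Dppa3. The 5 genes were chosen by a proposal made with measured H3K27me3 values of these libraries in view, and which contrast drew it was not recorded; the consensus peaks themselves were called on the mark. All differences in H3K27me3 between lines or times are therefore given as a description without a p-value; whether a fit called them is given too, and nothing is supported with them.

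The study used ChIP-seq of mouse embryonic stem cells to ask what inducing the long non-coding RNA Firre with doxycycline does to this histone mark, in a Firre KO and a WT background. The 4 lines were Firre KO cells with an inducible Firre transgene (KO transgene), cells labelled Firre KO without it (KO control), WT cells with the inducible transgene (WT transgene) and cells labelled WT without it (WT control). Each line was sampled at 48 h and at 0 h of doxycycline, with 1 H3K27me3 library and 1 input library per condition, 16 libraries in all. The medium of all lines held serum, LIF, PD0325901 and CHIR99021, inhibitors that hold stem cells in a naive state. Doxycycline is the labelled treatment of every sample. The labels name neither clones nor separate cultures, so no condition has a replicate and p-values measure only a spread between these libraries that may be technical.

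H3K27me3 is laid down by Polycomb repressive complex 2 and typically covers developmental genes that are silent. Nanog encodes a homeodomain factor of the pluripotency network, and Dppa3 (also called Stella) encodes a maternal-effect protein that limits DNA methylation and is expressed in naive but not in primed pluripotent cells. Gdf3 encodes a TGF-beta family ligand, Apobec1 a cytidine deaminase that edits RNA, and Slc2a3 the glucose transporter GLUT3.

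Total counts over the peaks ran from 10380781 to 14787938 in the H3K27me3 libraries and from 3340654 to 6244333 in the input libraries, the library labelled KO control at 0 h being the shallowest of each. Neither control label was borne out at Firre. Input over the Firre region held 73 and 37 counts at 48 h and 0 h in the line labelled KO control. The line labelled WT control held 6 and 3 counts, and both transgene lines held 66 to 104 counts. These counts were not scaled to depth, and the 37 came from the input library with a total of 3340654. Both lines are therefore called by their labels, background means the labelled background, and every direction that involves either line holds for the labels only. Chromosome 11 took 9.96% to 11.1% of input counts in the lines labelled KO, against 8.25% to 8.46% in those labelled WT. Chromosome 6 took 5.60% to 5.68% against 5.765% to 5.86%, without overlap. The scaled counts and line ratios below use totals over all peaks and were not adjusted for these shares.

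Where the peaks lay set the genes of the locus apart from each other. The upstream Dppa3 peak spanned 6613 bp (chr6:122619677-122626290, mm10) and ended 134 bp before the start of the Dppa3 span (chr6:122626424-122630271), which is transcribed toward higher coordinates. The downstream peak of 4091 bp (chr6:122628662-122632753) began 2238 bp inside the gene and ran past its end. Peak coordinates are as deposited, where starts may count from 0 or from 1. Exons and UTRs of these genes were not annotated in the tables used here.

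No peak lay within 2 kb of the other 4 genes. The nearest peak was 4.7 kb from Apobec1 (chr6:122577792-122603024) and 9.6 kb from Gdf3 (chr6:122605403-122610087), for which it was the upstream Dppa3 peak. It was 26.4 kb from Nanog (chr6:122707489-122714633) and 15.9 kb from Slc2a3 (chr6:122727809-122802363). Nanog and Slc2a3 shared a stretch of 137.1 kb without a peak. Of the 102800 stretches between neighbouring peaks of the genome, 2.32% were at least as long, with a median of 5.25 kb. Slc2a3 itself spans 74555 bp and had no peak within 2 kb, which sets a lower bound on that length. The stretches were picked because they hold genes of the locus, so the shares given here do not show that they are unusual. Apobec1 and Gdf3 lay in a stretch of 46.6 kb, which 8.78% of stretches equalled or exceeded. After Dppa3 came 47.8 kb without a peak (8.55%), then a peak of 572 bp and then the stretch with Nanog. A lack of a peak does not show that H3K27me3 was absent, since counts were deposited for peaks alone.

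**Figure D1:**
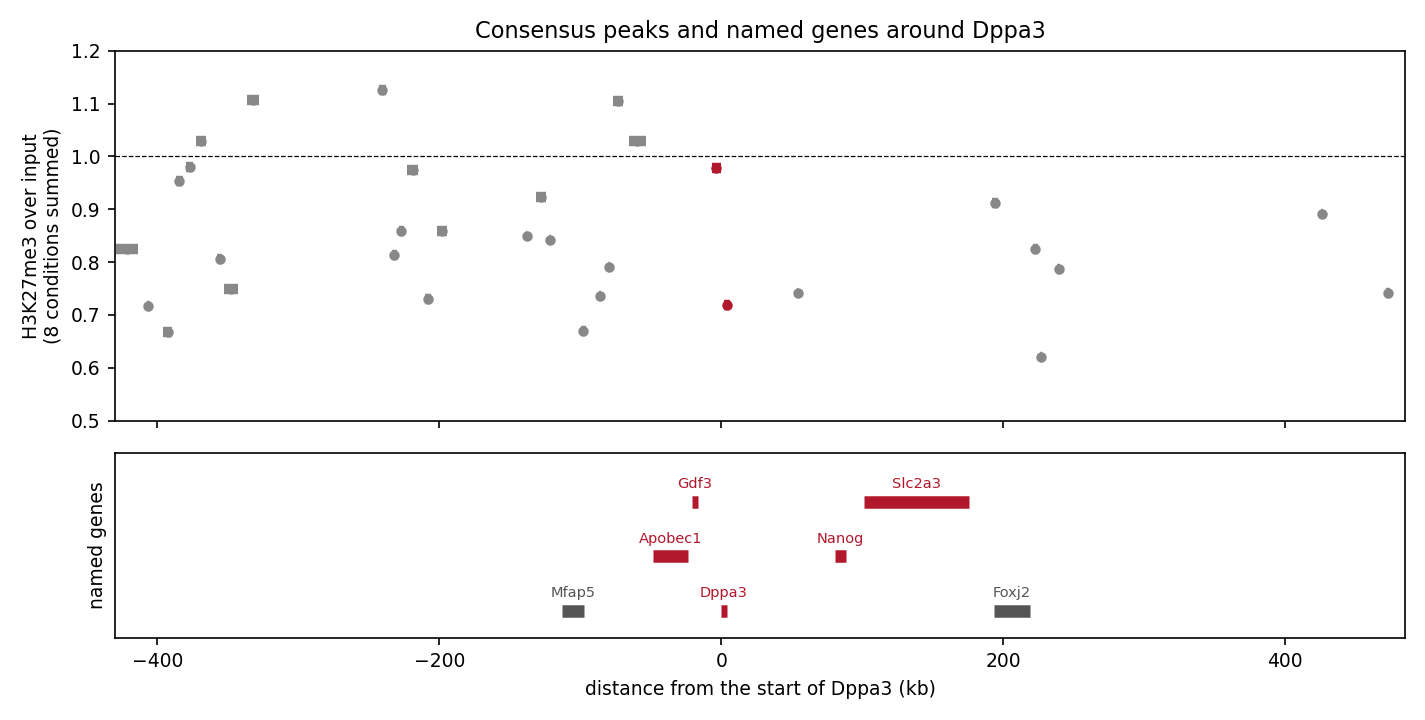
Top, H3K27me3 over input with the 8 conditions summed (ratio of CPM over peaks) for each consensus peak, drawn to width with a dot at its centre, against the distance from the start of Dppa3 in kb; the dashed line is a ratio of 1. Bottom, spans of the 5 genes of the locus and of the neighbours Mfap5 and Foxj2; other genes are not drawn. The 5 genes of the locus and the 2 Dppa3 peaks are red, and Nanog and Slc2a3 sit in the 137.1 kb stretch without a peak.

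RefSeq promoter sequences (GRCm38.p6, the same build as mm10) were matched for Nanog and Apobec1 among the 5 genes, and for the neighbours Foxj2, a forkhead factor gene on the far side of Slc2a3, and Phc1, a gene of a Polycomb repressive complex 1 subunit. The 250 bases before the start are shown for the upstream one of 2 Nanog starts, which had no peak, and for Foxj2, whose promoter lay inside a peak, because they differ widely in CG dinucleotides, which stand in capitals. The first is chr6:122707239-122707488 and the second chr6:122819934-122820183, both on the plus strand.
Nanog: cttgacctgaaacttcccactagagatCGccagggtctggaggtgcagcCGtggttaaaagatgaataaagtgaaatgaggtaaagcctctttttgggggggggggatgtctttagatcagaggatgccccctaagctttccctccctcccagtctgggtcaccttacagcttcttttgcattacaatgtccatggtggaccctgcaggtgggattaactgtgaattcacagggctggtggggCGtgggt
Foxj2: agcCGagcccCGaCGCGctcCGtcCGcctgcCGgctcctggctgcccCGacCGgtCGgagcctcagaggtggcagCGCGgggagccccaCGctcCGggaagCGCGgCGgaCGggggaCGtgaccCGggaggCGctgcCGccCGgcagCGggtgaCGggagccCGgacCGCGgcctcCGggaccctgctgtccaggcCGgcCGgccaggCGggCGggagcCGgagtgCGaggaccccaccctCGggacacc

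The Nanog sequence held 3 CG, that before the other Nanog start (chr6:122707315-122707564) 2, that of Foxj2 36, that of Apobec1 7 and that of Phc1 8, against a median of 6 over 32851 promoters. The dinucleotide CG reads the same on both strands and occurred at least once in 92.1% of promoters. A peak overlapped the promoter of Foxj2 but not those of Nanog, Apobec1 or Phc1, and 31.3% of all promoters overlapped one. Over all promoters this share was 24.2% with 0 or 1 CG, 40.6% with 5 to 9 and 23.97% with 20 or more, so a count of CG alone did not order promoters by their overlap with these broad peaks.

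In the authors' deposited peak table the peak caller gave the upstream Dppa3 peak a fold enrichment of 2.28, above that of 97.2% of all peaks and the highest of the 32 peaks in a window of 900 kb around the locus. The downstream peak had a fold of 1.57, against a median of 1.53 over all peaks. Relative to input the upstream peak again lay above the downstream one, but 6 other peaks of the window lay above both. With all conditions summed, H3K27me3 CPM (the count scaled to a library total over peaks) was 0.978 times input at the upstream peak, a ratio above that of 76.9% of peaks, and 0.719 times input at the downstream peak, above 11.1%. Library sizes were counts within peaks, so the ratio of all peaks summed is 1 by construction while the median peak had 0.863, and a ratio below 1 does not mean that the mark was missing.

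The level of H3K27me3 at Dppa3 was lowest in the line labelled KO control. Over the upstream peak, the count at 48 h and 0 h was 224 and 195 in KO transgene, 165 and 107 in cells labelled KO control, 241 and 255 in WT transgene, and 270 and 207 in the line labelled WT control. Over the downstream peak it was 110 and 86 in KO transgene, 55 and 41 in cells labelled KO control, 118 and 116 in WT transgene, and 116 and 109 in the line labelled WT control. After scaling to the total over peaks, the line labelled KO control remained lowest at both times over both peaks, and the transgene lines and the line labelled WT control lay above it.

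With both peaks summed, H3K27me3 reached 22.6 and 22.03 CPM in KO transgene, 17.8 and 14.3 in cells labelled KO control, 27.4 and 27.5 in WT transgene, and 28.0 and 24.3 in the line labelled WT control, again at 48 h and 0 h. The 4 libraries of the lines labelled KO thus ran from 14.3 to 22.6, without overlap with the 4 libraries labelled WT at 24.3 to 28.0, and the KO library was lower in 4 of 4 pairs matched for transgene and time. Such a gap in this direction was found in 6.14% of all regions and 4.12% of all peaks. The 30 other peaks of the 900 kb window, summed, showed it as well, with 279.7 to 294.6 CPM in the lines labelled KO and 295.4 to 310.9 CPM in those labelled WT, as did 2 of the 30 singly. Input over the same peaks was 24.9 and 29.7 CPM in KO transgene, 24.4 and 29.3 in cells labelled KO control, 26.7 and 28.4 in WT transgene, and 24.6 and 25.2 in the line labelled WT control. Input of the 2 backgrounds overlapped.

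**Figure D2:**
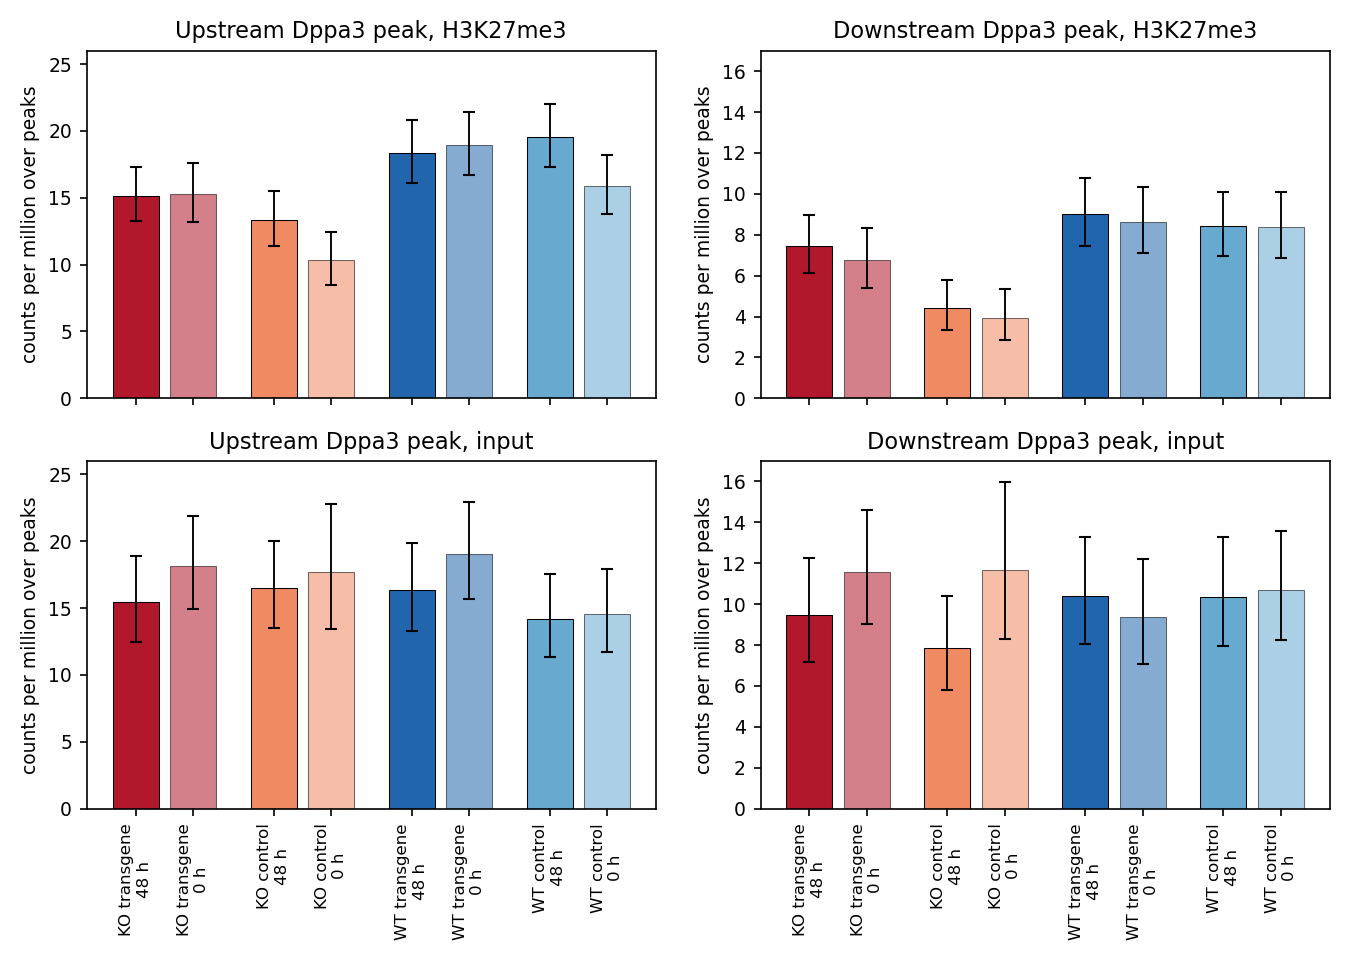
Lines are named by their labels. CPM over peaks in each library for the upstream (left) and downstream (right) Dppa3 peak, in H3K27me3 (top) and input (bottom), with 95% exact Poisson intervals that cover counting error only. Solid bars are 48 h and pale bars 0 h; the line labelled KO control has the lowest H3K27me3 bars in both top panels, and the input bars show no such step.

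The ratio between lines was taken with both times summed and with 95% exact binomial (Clopper-Pearson) intervals, which leave out all but counting error since reads copied by PCR are not separate molecules. H3K27me3 at both peaks was 0.617 times (0.543 to 0.701) as high in the line labelled KO control as in the line labelled WT control, and 0.813 times (0.730 to 0.907) as high in KO transgene as in WT transgene. It was 1.38 times (1.21 to 1.58) as high in KO transgene as in the line labelled KO control, and 1.05 times (0.944 to 1.17) as high in WT transgene as in the line labelled WT control. The corresponding input ratios were 1.05, 0.991, 1.05 and 1.11, and each of their intervals contained 1.

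Both times showed the step between the control lines, with 0.635 (0.536 to 0.751) at 48 h and 0.587 (0.480 to 0.716) at 0 h. It was 0.503 (0.392 to 0.641) at the downstream peak and 0.672 (0.577 to 0.781) at the upstream peak, so the intervals of the 2 peaks overlapped. Between KO transgene and WT transgene the ratio was 0.826 (0.709 to 0.961) at 48 h and 0.800 (0.683 to 0.937) at 0 h. The 0 h values rest on 1 library per line, and the cause of the line differences was not tested.

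Set against the matched input, H3K27me3 at both peaks was 0.817 (0.714 to 0.937) in KO transgene, 0.619 (0.526 to 0.730) in the line labelled KO control, 0.996 (0.874 to 1.14) in WT transgene and 1.05 (0.918 to 1.21) in the line labelled WT control. Ordered by level, the 2 WT lines had overlapping intervals, KO transgene overlapped WT transgene and the line labelled WT control, and the interval of the line labelled KO control overlapped only that of KO transgene. At the downstream peak the ratio was 0.677 in KO transgene, 0.459 in the line labelled KO control, 0.888 in WT transgene and 0.798 in the line labelled WT control. At the upstream peak it was 0.905, 0.706, 1.06 and 1.24 in the same lines. Input there was 16.9 CPM in the line labelled KO control and 14.4 in the line labelled WT control. That step over input therefore includes an input difference, which was not called (log2 0.29 ± 0.16). Over the 8 conditions, the SD of the ratio was 0.238 at the upstream and 0.194 at the downstream peak, within the 0.0494 to 0.610 of the 30 other single peaks of the window, whose counts differ.

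**Figure D3:**
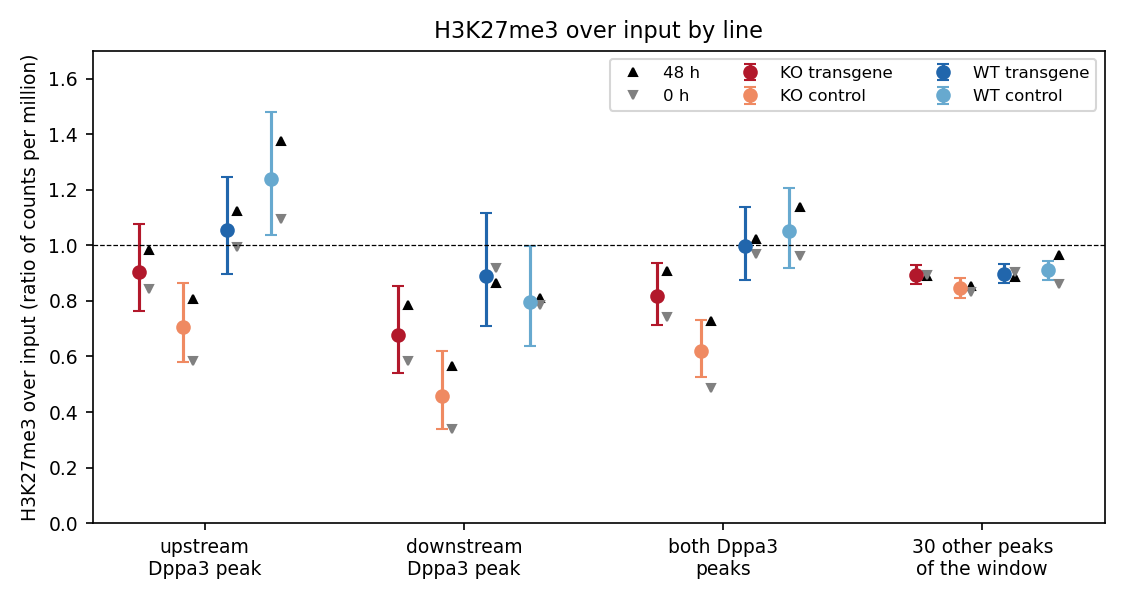
H3K27me3 over input (ratio of CPM over peaks) by line for the Dppa3 peaks and for the 30 other peaks of the window summed. Coloured dots are both times summed with 95% exact binomial intervals, triangles are 48 h (up) and 0 h (down), and the dashed line is 1. At both Dppa3 peaks summed, the line labelled KO control lies at 0.619 and the line labelled WT control at 1.05, while the sum of the 30 other peaks, which averages out what single peaks do, stays between 0.845 and 0.910.

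The same values were fitted in models over all regions or all peaks, with edgeR's quasi-likelihood test and Benjamini-Hochberg adjustment at 0.05, and a feature past that threshold is named as called. The Dppa3 region was called lower in the KO than in the WT background (log2 -0.46 ± 0.07 SE), where 2.9% of the 22302 gene regions were called lower. It was called lower in the line labelled KO control than in the line labelled WT control (-0.68 ± 0.09), with 4.6% of regions called lower, and lower in KO transgene than in WT transgene (-0.30 ± 0.08), with 2.26%. It was called higher in KO transgene than in the line labelled KO control (0.45 ± 0.09), with 1.2% called higher. The call between the transgene lines was lost without the WT transgene library at 0 h (-0.21) or the KO transgene library at 48 h (-0.24), and that within the KO background without the library labelled KO control at 0 h (0.35). These calls rest on contrasts that may have drawn the locus, and nothing is read from them.

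Between the control lines 0.547% of the regions had a lower log2 difference than Dppa3. Both single peaks were called lower in that contrast, the upstream one at -0.52 ± 0.11 and the downstream one at -0.94 ± 0.17, where 0.585% of all peaks were called lower. Both were also called lower in the KO background (-0.39 ± 0.08 and -0.56 ± 0.11), with 0.622% of peaks called lower. Neither was called between KO transgene and WT transgene (-0.29 ± 0.10 and -0.30 ± 0.14), where 0.251% of peaks were called lower, and only the downstream peak was called higher in KO transgene than in the line labelled KO control (0.73 ± 0.18, against 0.33 ± 0.11 upstream), with 0.0942% of peaks called higher. The upstream call between the control lines was lost with the library labelled KO control at 0 h (-0.40) left out and likewise with that labelled WT control at 48 h (-0.39). DESeq2 called neither peak between the control lines (-0.53 and -0.95), where an adjusted p set to NA was counted as no call. The downstream call within the KO background was lost without any 1 of the 4 libraries it compares (0.68 to 0.79).

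When the input libraries were put in the same model, a fit by line that was added after the data were seen, the Dppa3 region stayed lower in the line labelled KO control than in the line labelled WT control (-0.78 ± 0.15 over input), with 0.336% of regions called lower. That contrast was -0.68 ± 0.09 in H3K27me3 alone and 0.12 ± 0.12 in input, which was not called. The KO background as a whole differed from WT by -0.50 ± 0.11 over input and was called lower, with 0.26% called lower. Neither KO transgene against WT transgene (-0.28 ± 0.14) nor KO transgene against the line labelled KO control (0.43 ± 0.15) was called in this model. DESeq2 gave -0.30 for the first of these on H3K27me3 counts alone, which was not called, and 0.46 for the second, whose adjusted p it set to NA.

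**Figure D4:**
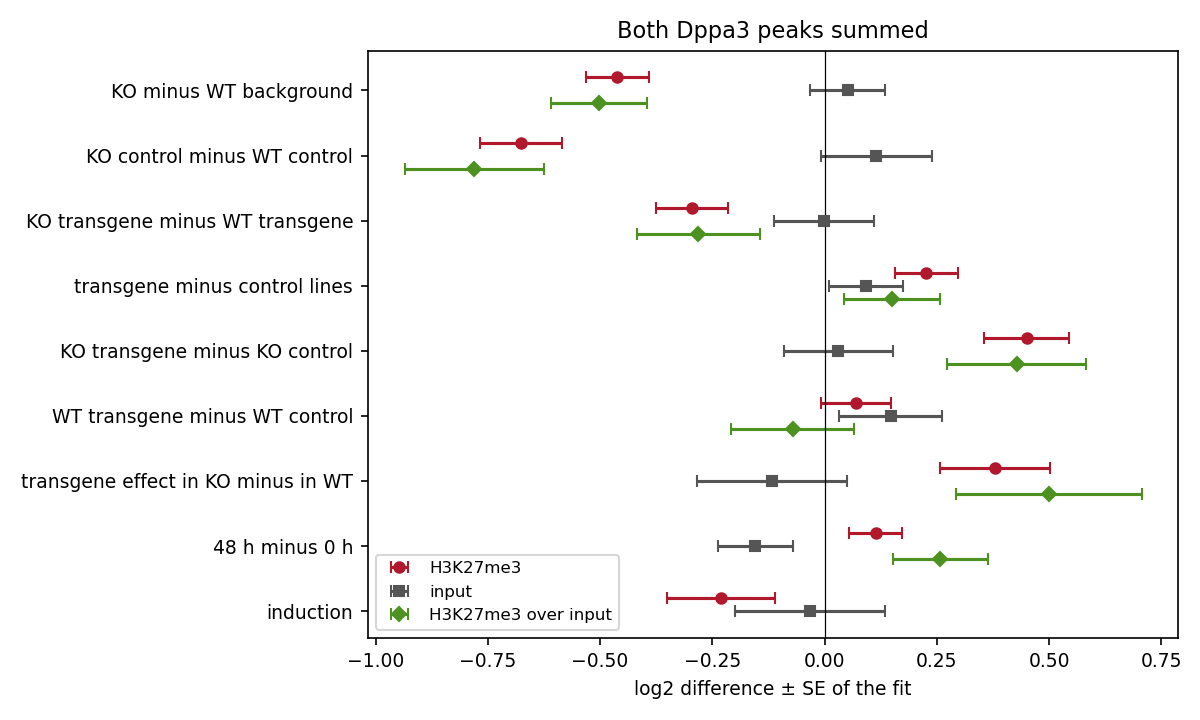
Log2 difference ± SE of the edgeR fit for both Dppa3 peaks summed, in H3K27me3 (circles), in input (squares) and in H3K27me3 over input (diamonds), for each contrast named at the left. Induction, the 48 h change in transgene lines minus that in the others, was not fitted over input. The control line difference is -0.68 in H3K27me3 and 0.12 in input.

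H3K27me3 at Dppa3 was not called between the times of doxycycline, a contrast that the choice of the locus may have used as well. The log2 difference of 48 h minus 0 h was 0.11 ± 0.06 for both peaks summed, where 1.64% of regions were called in either direction. By line, the 48 h over 0 h ratio was 1.02 (0.872 to 1.21) in KO transgene, 1.245 (1.01 to 1.55) in the line labelled KO control, 0.993 (0.857 to 1.15) in WT transgene and 1.15 (0.990 to 1.34) in the line labelled WT control. Both transgene lines were thus close to 1, and the 2 lines labelled without a transgene were above it, with an interval that contained 1 in the line labelled WT control.

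Induction, the 48 h change in the transgene lines minus that in the lines labelled without it, was -0.23 ± 0.12 and was not called, where 0.0404% of regions were called. The difference between transgene and control lines over both backgrounds was 0.23 ± 0.07 (1.17% called), and the transgene difference in the KO background minus that in WT was 0.38 ± 0.12 (3.54% called). Within WT it was 0.07 ± 0.08 (2.19% called). None of these 3 was called at Dppa3. The difference between transgene and control lines was called without the library labelled WT control at 48 h (0.31) or that of WT transgene at 48 h (0.32). The transgene difference in KO minus that in WT was called without the WT transgene library at 0 h (0.47) or the library labelled KO control at 48 h (0.52), with total counts (0.40) and with a mean count of at least 50 (0.40). It takes the lines labelled KO control and WT control by their labels, which the Firre counts of their input did not bear out. The SEs mostly follow read depth, since the 2 to 4 residual degrees of freedom of a region carried little weight beside the spread pooled over regions.

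Input at Dppa3 did not pass the test in any contrast. The log2 difference was 0.12 ± 0.12 between the line labelled KO control and the line labelled WT control (edgeR, adjusted p = 0.844), where 5.09% of regions were called in either direction in input. It was 0.05 ± 0.08 between the backgrounds (adjusted p = 0.930 by edgeR) and -0.15 ± 0.08 between 48 h and 0 h (adjusted p = 0.944 by edgeR). With 98 to 180 input counts per library over both peaks, smaller differences in input were not detectable at this depth.

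The other peaks of the window had smaller summed differences between lines. The 30 peaks of the 900 kb window other than those of Dppa3, summed, differed by a log2 of -0.07 ± 0.03 between the line labelled KO control and the line labelled WT control and by -0.07 ± 0.03 between the backgrounds, and neither difference was called. Singly, 18 of the 30 were below 0 in the control line contrast, with a median of -0.04 and a range of -0.70 to 0.53, and 1 was called. No other contrast in H3K27me3 called any of the 30. Relative to input, 19 of the 30 peaks were below 0 in the control line contrast, and 0 were called. A peak 240.5 kb before the start of Dppa3 had 0.828 (0.668 to 1.03) in the line labelled KO control and 1.40 (1.14 to 1.73) in the line labelled WT control. Its H3K27me3 was 11.2 and 14.2 CPM in these lines, but its input also differed, with 13.6 and 10.2 CPM. In the line labelled KO control its ratio was 0.598 at 0 h, where input was 18.9 CPM, and 1.045 at 48 h. The Mfap5 peak had 0.472 and 0.785 over input in the same lines. The Foxj2 peak had 0.756 and 1.16, with input of 11.4 and 9.78 CPM.

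The called neighbour lay over Mfap5, a gene of the microfibril protein MAGP2, 97.8 kb before the start of Dppa3 at its centre (chr6:122526719-122530548; log2 -0.65 ± 0.17 between the line labelled KO control and the line labelled WT control). Its H3K27me3 was 6.70 and 6.66 CPM in KO transgene, 4.60 and 5.11 CPM in the line labelled KO control, 7.54 and 6.61 CPM in WT transgene, and 8.84 and 6.84 CPM in the line labelled WT control, at 48 h and 0 h. The 2 libraries of the line labelled KO control were the lowest there too. Input over the Mfap5 peak was 10.2 CPM in the line labelled KO control and 10.0 in the line labelled WT control.

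The peak over the Foxj2 promoter (chr6:122818238-122822623) held 8.61 CPM in the line labelled KO control and 11.3 in the line labelled WT control. As a gene region it was called lower in that contrast (-0.37 ± 0.13), although the same counts were not called among single peaks, where more features were tested.

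**Figure D5:**
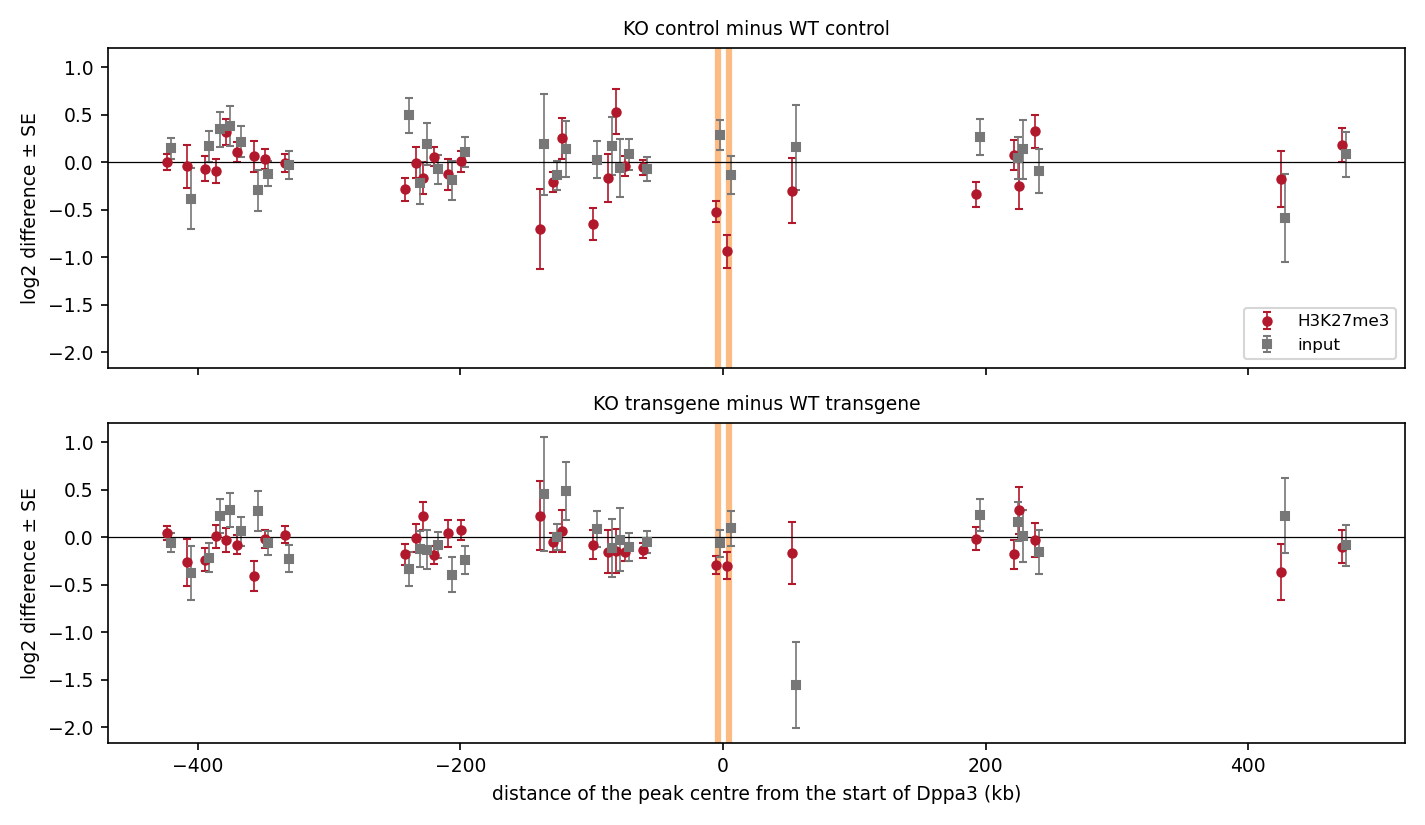
Log2 difference ± SE of the edgeR fit for each of the 32 peaks of the window against the distance of its centre from the start of Dppa3 in kb, in H3K27me3 (circles) and input (squares), for the line labelled KO control minus the line labelled WT control (top) and for KO transgene minus WT transgene (bottom). Orange bands mark the Dppa3 peaks, which are at -0.52 and -0.94 in H3K27me3 in the top panel, beside -0.65 at Mfap5.

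Among the 27 genes of a pluripotency list only Dppa3, Esrrb and Lin28a had a peak within 2 kb, so 24 had none, Nanog and Gdf3 among them. Over input, Dppa3 had 0.879, Lin28a 0.876 and Esrrb 1.31, against a median of 0.941 over all 22302 regions. The median of these 3 regions is thus the value of Dppa3 itself. Peaks were present at 6 of 7 primed epiblast genes (median 1.33 over input), at 6 of 6 primitive endoderm genes (1.41), at 7 of 7 trophoblast genes (1.52) and at 6 of 7 fibroblast genes (1.35), but at 2 of 10 housekeeping genes (0.773). Over the genome 25229 genes had a peak, but the share of all genes with a peak was not computed. These counts can therefore not be set against it. The lists describe the mark and not expression, which was not measured here.

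Esrrb, an orphan nuclear receptor gene of the naive network, and Lin28a, which encodes an RNA-binding protein that blocks let-7 maturation, had other values than Dppa3. In the line labelled KO control minus the line labelled WT control, H3K27me3 differed by 0.11 ± 0.03 at Esrrb, which was called higher as were 10.6% of regions, and by -0.09 ± 0.19 at Lin28a, which was not called. Lin28a was called higher in KO transgene than in WT transgene (0.53 ± 0.19), as were 6.17% of regions. Of the 3 list regions, 1 was thus called lower and 1 higher between the control lines.

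The regions whose H3K27me3 over input followed the 8 conditions most like Dppa3 were Gm46499 on chromosome 15 (Pearson r = 0.991), Trmo, a tRNA methyltransferase gene on chromosome 4 (0.976), Trabd2b on chromosome 4 (0.969), Ephx4 on chromosome 5 (0.967) and Gm32061 on chromosome 7 (0.965). They were the highest of 19087 regions ranked over 8 points, which share lines, libraries and depth, and the values are a description. A high r does not mean a change of like size. The SD of the log2 ratio over the conditions ran from 0.0338 at Trabd2b to 0.251 at Trmo. The Dppa3 ratio itself ran from 0.486 to 1.138. The log2 differences of these 5 regions between the lines labelled KO control and WT control were smaller than that of Dppa3, from -0.17 to -0.06. None of the 5 lies on chromosome 6.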

How the data were processed

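H3K27me3 and input ChIP-seq counts of 16 libraries of mouse embryonic stem cells were used. Raw read counts of each library over each consensus peak were deposited as whole numbers, and the deposited peak list gave a score, a fold enrichment and −log10 q-values per peak, which are the authors' values of the peak and not of a library. Per the submitters' processing notes, mm10 was the build, and MACS2, BWA 0.7.17-r1188, DESeq2 1.26.0 and featureCounts were used in roles they do not state. The sources used here do not give the libraries used to call peaks. Broad peaks hide changes narrower than a peak.

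The 5 genes and all lists were chosen with earlier results of these data known. Named neighbours are the genes and peaks of a 900 kb window, list members with a peak, and the 5 most alike regions. Peaks were summed per RefSeq gene span with 2 kb on either side (22302 regions for 25229 genes, genes with the same peaks sharing a region). The RefSeq table gives no strand, so the direction of Dppa3 is taken from general knowledge of the gene. The names upstream and downstream of its peaks rest on that direction. Counts were fitted with edgeR 4.0.16 (R 4.3.3; TMM, filterByExpr, quasi-likelihood F test) over all features: an additive model of background, transgene and time, a model of line plus time, and induction as the transgene by time term. Ratios use totals over peaks (Python 3.11.15, scipy 1.17.1). The fits were also run on simulated Poisson counts, which hold no spread between lines or cultures. That run therefore cannot show how the fits behave where such spread exists. Alternatives were total counts or RLE factors, DESeq2 1.42.0, limma-voom 3.58.1, no filter, a mean count of at least 50, input as an offset or in the same model, other flanks, and each library left out.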

Additional observations from a re-analysis of the deposited data

How the results depend on the processing

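No paired analysis was possible because the replicate numbers pair nothing, each condition having 1 library numbered 1. Libraries were instead matched by label (line, time and input), and the line was a term of the time fit. Summed over the Dppa3 peaks, the step between the lines labelled KO control and WT control kept its direction and call under every alternative run. So did the difference between the backgrounds, and time and induction kept their lack of a call. The gene span without flanks holds the downstream peak alone, and 10 kb flanks add the peak 4.7 kb from Apobec1. Without flanks induction was 0.0449, beside 0.047 for the downstream peak and -0.35 for the upstream peak in the main fit. The sum of both peaks was at -0.23.

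Between KO transgene and WT transgene the call was lost in DESeq2 (-0.30), with input as an offset (-0.28) or in the same model (-0.28). The gene span without flanks, which holds the downstream peak alone, was not called either (-0.30). That peak singly was at -0.30 in the main fit and not called. Between KO transgene and the line labelled KO control the call was lost in DESeq2 (0.46, adjusted p NA), with input as an offset (0.43) and in the same model (0.43). WT transgene minus the line labelled WT control was -0.066 with input as an offset and -0.0712 in the same model, against 0.07, and at the upstream peak -0.17 and -0.21. Downstream induction was -0.15 with input as an offset. The transgene difference in KO minus that in WT passed the threshold with total counts (0.40) and a mean count of at least 50 (0.40).

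Of the 2 peaks, the number called between the control lines was 0 in DESeq2 and 1 with input as an offset or in the same model. It was 0 for the backgrounds with input as an offset or in the same model, and 0 within the KO background in those fits and in DESeq2, against 2, 2 and 1. In DESeq2 a peak with an adjusted p of NA was counted as not called, so a 0 there need not be a failed test. With 10 kb flanks 3 of the 5 genes had a peak, against 1.

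With each library left out in turn, the summed difference ran from -0.81 to -0.57 between the control lines, from -0.55 to -0.39 between the backgrounds, from -0.39 to -0.21 between the transgene lines, from 0.35 to 0.59 within the KO background, from -0.0186 to 0.16 within WT, from 0.16 to 0.32 for transgene against control lines and from 0.28 to 0.52 for the transgene difference in KO minus that in WT. WT transgene minus the line labelled WT control at the upstream peak ran from -0.0253 to 0.22 and downstream induction from -0.068 to 0.096. The number of peaks called ran from 1 to 2 between the control lines and from 0 to 1 within the KO background. A lone remaining library of a line was assumed to vary like the others. The causes of these changes were not tested. With 41 to 118 downstream H3K27me3 counts per library, depth limits what single peaks can show.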
